A study of Mus musculus with 24 samples.

Results

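The genes described here are 10 enzymes that act on reactive products of foreign chemicals and lipids: 6 glutathione transferases (Gsta4, Gstm1, Gstm5, Gstp1, Gstt1 and Gsto1), 3 aldehyde dehydrogenases (Aldh1a1, Aldh1a7 and Aldh2) and the epoxide hydrolase Ephx1. They were found by the gene name that the array files give each probe, without use of any measured value. All 10 were on the array, with 14 probes and 23 spots, and all 10 passed the filter on dim genes, among 24497 genes tested of 28149 gene names.

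The mice were C57BL/6j females, 6 weeks old, and RNA was taken from their bone marrow. Each array compared a Cy3-labelled sample, a pool of 9 per the labels, with a Cy5-labelled pool of wild type (WT) marrow after oil, and no dyes were swapped. Mice received an injection into the peritoneum of the vehicle olive oil, of benzo(a)pyrene (abbreviated BP), of DMBA, which is 7,12-dimethylbenz(a)anthracene, or of TCDD, which is 2,3,7,8-tetrachlorodibenzo-p-dioxin. The labels give a single dose, 50 mg/kg, for all of them. The WT groups were oil (3 arrays), BP at 6 h (2), DMBA at 12 h (3) and TCDD at 12 h (3). Cyp1b1-null mice received oil (2) or DMBA for 12 h (2), Cyp1a1-null mice oil (3) or BP for 12 h (3), and Cyp1b1/Cyp1a1-null mice, called double-null here, oil (1) or BP for 12 h (2). The sources used here do not say how the null alleles were made, whether the 9 were mice, or whether replicates were separate pools, so p-values measure the spread between arrays, which may be technical.

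BP and DMBA are polycyclic hydrocarbons that bind the aryl hydrocarbon receptor (AhR), as does the dioxin TCDD, and cytochromes P450 of family 1 oxidise the hydrocarbons to epoxides. Ephx1 opens such epoxides to diols, a step that both detoxifies and, for some hydrocarbons, prepares diol epoxides. Glutathione transferases join electrophiles to glutathione, and aldehyde dehydrogenases oxidise aldehydes from metabolism and lipid peroxidation, an activity for which blood stem cells are known.

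Aldh1a1 and Aldh1a7 lie next to each other on mouse chromosome 19 and encode closely related cytosolic enzymes, yet they had different values across the treatments. The 250 bases before a start of each gene, from the RefSeq promoter table on GRCm38.p6, are therefore shown, with capitals for identical aligned runs of at least 10 bases. The Aldh1a1 window is chr19:20601718-20601967 on the plus strand and the Aldh1a7 window chr19:20727557-20727806 on the minus strand, both written 5′ to 3′.
Aldh1a1: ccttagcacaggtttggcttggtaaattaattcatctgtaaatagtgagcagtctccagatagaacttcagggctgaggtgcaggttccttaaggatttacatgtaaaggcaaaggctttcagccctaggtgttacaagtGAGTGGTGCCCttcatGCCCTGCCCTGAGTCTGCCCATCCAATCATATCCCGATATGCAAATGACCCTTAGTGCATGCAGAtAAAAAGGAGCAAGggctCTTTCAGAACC
Aldh1a7: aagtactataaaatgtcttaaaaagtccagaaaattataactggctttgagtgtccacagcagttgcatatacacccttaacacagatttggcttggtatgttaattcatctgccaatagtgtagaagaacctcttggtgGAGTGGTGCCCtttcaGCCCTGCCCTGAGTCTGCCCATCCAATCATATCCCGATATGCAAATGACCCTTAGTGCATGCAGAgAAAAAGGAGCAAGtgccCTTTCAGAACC

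The windows were identical at 176 of 260 alignment columns (67.7%), with a longest shared run of 65 bases close to the start. A second annotated start of Aldh1a1 shared 53.9% with Aldh1a7 and no run over 8 bases. In all, 8 of the 10 genes had 10 windows in the table, and Gsta4 and Aldh2 had none. The letters GCGTG, the core of the AhR element, were searched on both strands of the 250 bases and stood in the windows of Gstm1, Gstm5 and Gstp1 (3 genes), and in 28.2% of all 32851 windows of this length. TGACNNNGC, the core of the electrophile response element, stood in that of Gstm5, where it overlapped a GCGTG match, and in 10.2% of all windows. Neither Aldh1a1 nor Aldh1a7 held either motif in these windows.

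The array measured each gene through 60-base probes. Those of 3 genes on which results turn are shown, 5′ to 3′, as the array files give them.
Gstm5: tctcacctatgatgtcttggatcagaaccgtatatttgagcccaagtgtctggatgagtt
Gstt1: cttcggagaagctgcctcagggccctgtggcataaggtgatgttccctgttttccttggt
Aldh2: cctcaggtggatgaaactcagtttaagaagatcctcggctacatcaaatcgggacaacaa

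WT oil replicate 1 stood apart, and most comparisons use it. The median log2(Cy3/Cy5), called the log ratio, of the 10 genes was -2.23 on it and -0.25 to 0.13 on the other 23 arrays. Its reference channel differed most: Cy5 was above every other array for 9 of the 10 genes, all but Gstm5, although all arrays should carry the same reference. Cy3 was within the other arrays for 5. The 8 measured of 10 liver markers had a median percentile of 99.8 among the Cy5 signals of that array, against 8.56 to 30.2 elsewhere, and of 93.6 in Cy3, against 5.13 to 23.5. These enzymes are abundant in liver, and the part of liver RNA in their values on that array was not tested. Results are therefore given with all 24 arrays and without that array, with a WT oil group of 2, here called the 23-array fit.

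**Figure D1:**
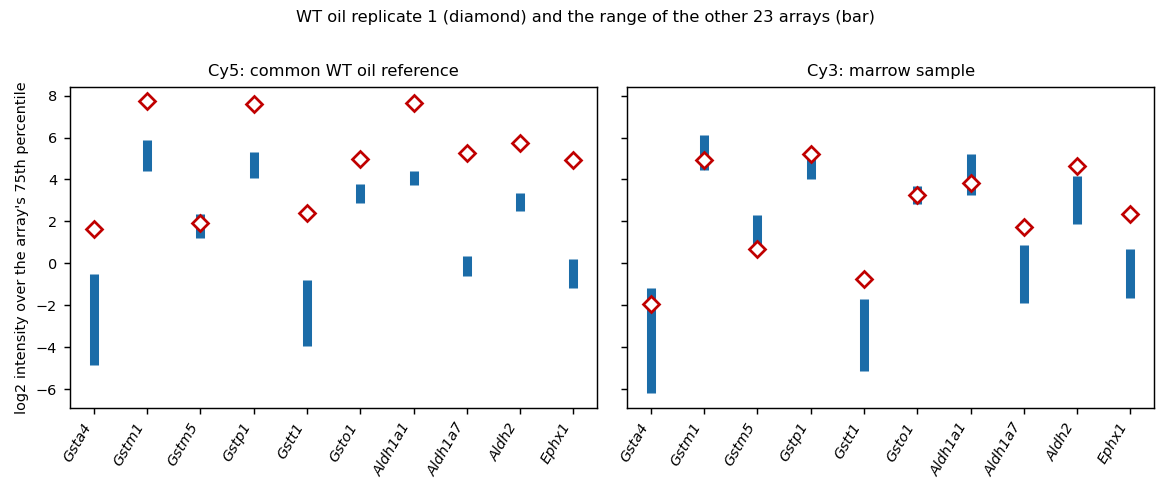
Log2 signal of each gene over the 75th percentile of its array (vertical axis), for the Cy5 reference and the Cy3 sample, on WT oil replicate 1 (diamonds) and over the other 23 arrays (bars from lowest to highest). The Cy5 diamond lies above the bar for 9 of the 10 genes, by 1.61 (Gsto1) to 5.89 (Gstt1) over the median of the other arrays.

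Elsewhere the tissue looked like marrow. Over the other 23 arrays the neutrophil list (8 of 8 genes measured) lay at median Cy3 percentiles of 99.0 to 99.9, the erythroid list (8 of 8, on the 22 arrays with a value for every gene of it) at 98.6 to 99.7 and the B lineage list (7 of 7) at 75.7 to 92.6. Fewer cells of a type and less RNA per cell cannot be told apart in such samples. Between 38.2% (WT TCDD replicate 1) and 84.8% (WT oil replicate 2) of probes were well above background in Cy3. The Cyp1a1 probe was well above background on no array labelled Cyp1a1-null or double-null. Nor was it on WT oil replicates 2 and 3, WT TCDD replicate 1 or both Cyp1b1-null oil arrays. Its low signal on the null oil arrays therefore does not check their labels. The Cyp1b1 probe was well above background on all arrays labelled Cyp1b1-null or double-null, at log ratios of 0.06 to 1.57. Its place relative to the deleted part is not known here, so it does not check those labels. WT oil replicate 3 correlated at r = -0.34 to -0.36 with 4 arrays of 1 slide, and the direction of the ratios was kept as the labels give the dyes.

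**Figure D2:**
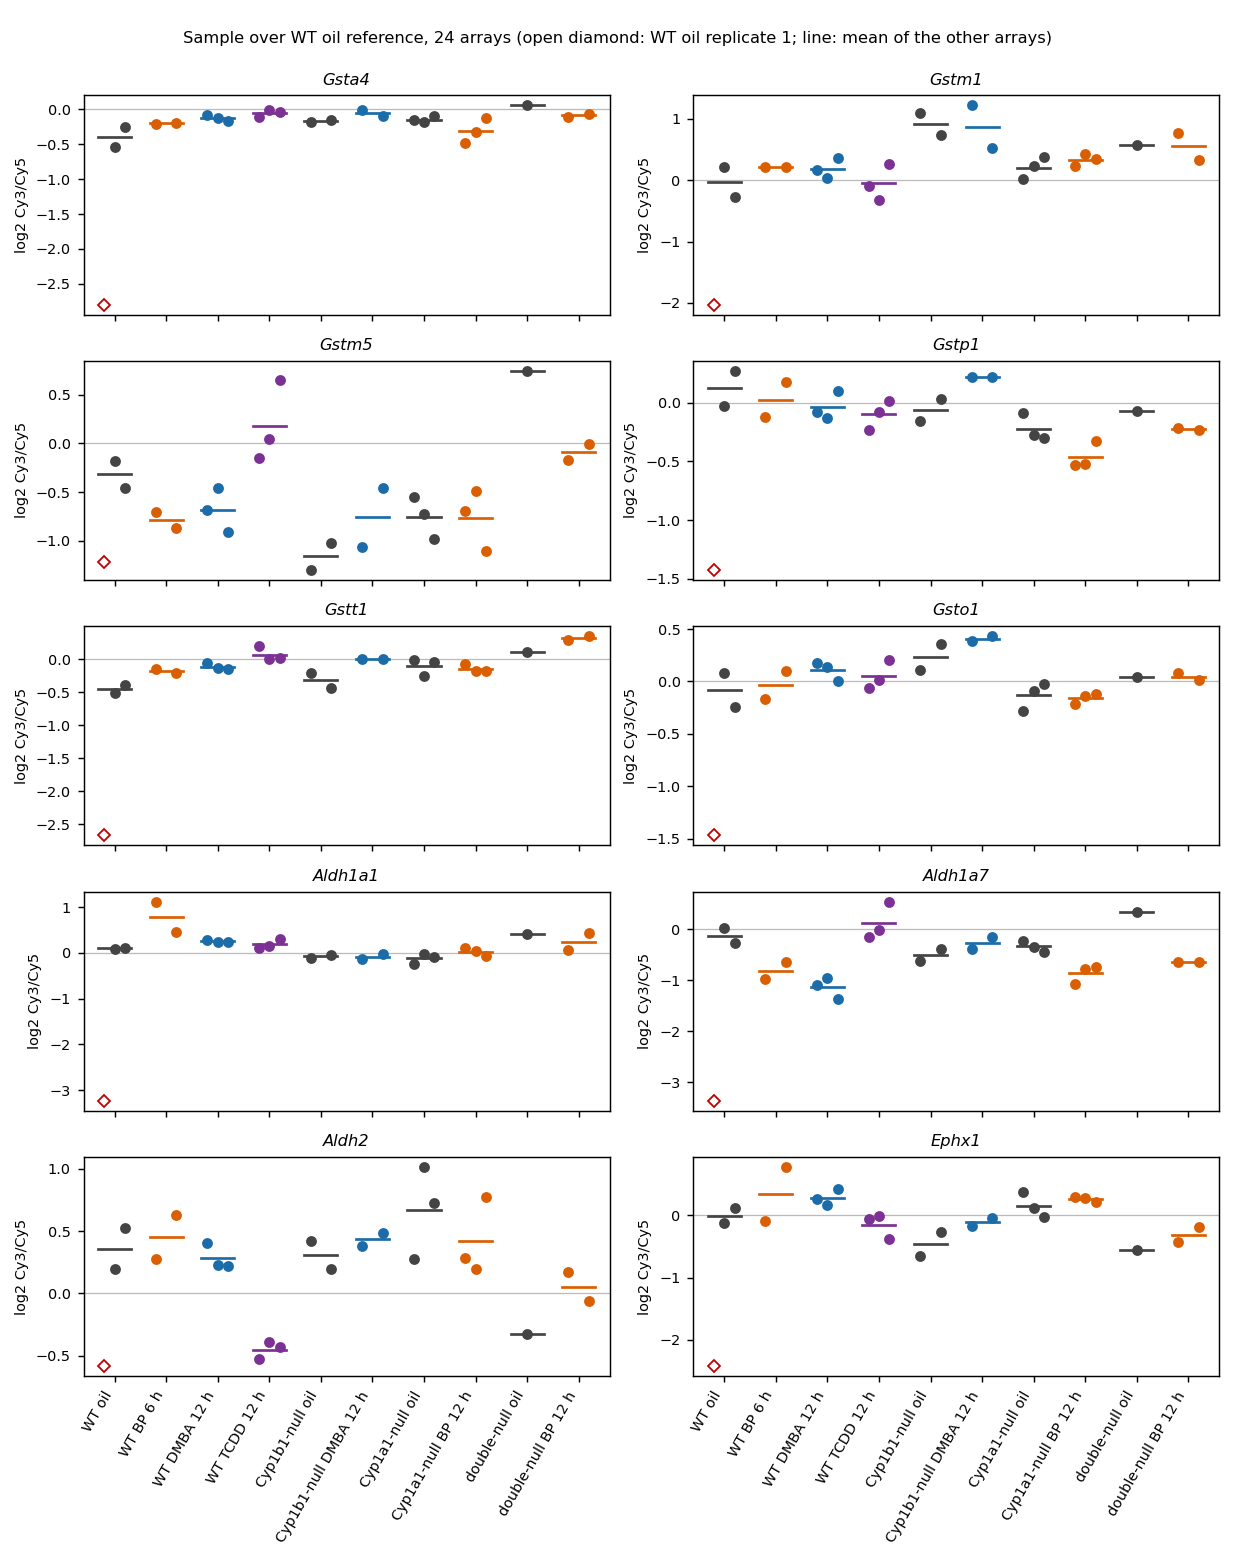
Log ratio of each gene (log2 Cy3/Cy5, vertical axis, a scale of its own per gene) on 24 arrays in 10 groups. Points are arrays, the open diamond is WT oil replicate 1 and lines are group means without it. The diamond is the lowest point of every panel but that of Gstm5, in which an array labelled Cyp1b1-null lies lower, at -1.30.

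Across the 10 groups, limma's F test on all 24 arrays called Gstm5 alone of the 10 genes (adjusted p = 0.0283), with 10.1% of all genes called. The 23-array fit called 9 of 10, all but Gsta4, with 42.3% of all genes called. The lowest adjusted p was that of Aldh1a7 (0.000542), followed by Gstm5 (0.00183) and Gstt1 (0.0029). The widest span of group means was that of Gstm5 (1.91 on the log2 scale), then Aldh1a7 (1.48) and Aldh2 (1.12), and the narrowest that of Gsta4 (0.46).

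Of the glutathione transferases, Gstm1, a mu class enzyme, was higher in the oil arrays labelled Cyp1b1-null. Its log ratios were 1.10 and 0.74 on the oil arrays and 1.22 and 0.53 on the DMBA arrays of that label. They were -2.03, 0.22 and -0.27 on the WT oil arrays. Both Cyp1b1-null oil arrays lay above all WT oil arrays. This was the 1 call among the 10 genes with all 24 arrays in Cyp1b1-null oil against WT oil, where 15.4% of all genes were called. The difference was 1.62 ± 0.43 (standard error from the fit, as for all values with ±; adjusted p = 0.0206). The 23-array fit gave 0.95 ± 0.23 (adjusted p = 0.00734), among 2 called genes of 10 and 29.6% of all genes. The call ended with all arrays when either Cyp1b1-null oil array was left out (adjusted p = 0.16 and 0.106). With 23 arrays it ended with slide as a block (0.88, adjusted p = 0.112) and for Cy3 alone (0.52, adjusted p = 0.366).

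A second, dimmer Gstm1 probe gave group means of 0.34 in Cyp1b1-null oil and 0.14 in WT oil, and the probes correlated at r = 0.30 over 23 arrays. The reference signal of the brighter probe was saturated on 5 arrays, WT oil replicate 1 and the 4 arrays of the slide with Cyp1a1-null oil. After BP, DMBA or TCDD in WT mice Gstm1 had log ratios of -0.32 to 0.35 on all 8 arrays, which overlapped WT oil replicates 2 and 3.

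Gstm5, another mu class enzyme with its own probe, went the other way in the same arrays. Its log ratios were -1.30 and -1.02 in Cyp1b1-null oil and -1.22, -0.18 and -0.46 in WT oil. Both were below WT oil replicates 2 and 3 but not apart from replicate 1. The difference was -0.84 ± 0.26 with 23 arrays (adjusted p = 0.0221) and -0.54 with all 24 (adjusted p = 0.21). On the slide that carried both Cyp1b1-null oil arrays, 2 Cyp1a1-null BP arrays had -0.70 and -0.49 for Gstm5, above the Cyp1b1-null arrays, and 0.22 and 0.43 for Gstm1, below them. With slide as a block the difference was -0.96 (adjusted p = 0.1). Processed signals with 23 arrays kept the call (-0.74, adjusted p = 0.0399). It ended for Cy3 alone (-0.32, adjusted p = 0.501). In Cy3 the Cyp1b1-null oil arrays, at 0.82 and 1.27, overlapped WT oil replicates 2 and 3, at 1.06 and 1.66.

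The B lineage list of 7 genes moved with that comparison, at median log ratios of -0.36 and -0.25 on the Cyp1b1-null oil arrays against 0.30 and 0.44 on WT oil replicates 2 and 3. The macrophage list of 7 was at 0.66 and 0.81 against 0.25 and 0.29, and the neutrophil list of 8 at 1.29 and 0.70 against -0.31 and 0.68. Their part in the Gstm1 and Gstm5 values was not tested.

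Gstm5 had its highest log ratio on the double-null oil array, 0.75, and its next highest on WT TCDD replicate 3, 0.65. The other TCDD arrays had -0.15 and 0.04, the WT DMBA arrays -0.68, -0.46 and -0.91, and the BP arrays -0.71 and -0.87. All TCDD arrays lay above all arrays of DMBA and BP in WT mice on the log ratios. In log2 Cy3 over the 75th percentile of the array, BP had 1.78 and 1.58 and TCDD 1.40, 1.43 and 2.07, which overlapped. The Cy5 reference was 2.23 and 2.16 on the BP arrays and 1.29, 1.20 and 1.29 on the TCDD arrays. Double-null oil against WT oil gave 1.06 ± 0.32 for Gstm5 without WT oil replicate 1 (adjusted p = 0.0546) and 1.36 with it (adjusted p = 0.073). The double-null BP arrays had -0.17 and -0.01.

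Gstt1, the theta class enzyme, is expressed at a low signal here: its Cy3 was well above background on 22 of 24 arrays, and not on WT oil replicate 3 or WT TCDD replicate 1. Its Cy5 reference was well above background on 21 arrays and on none of the 3 double-null arrays. Its log ratios were 0.20, 0.00 and 0.01 after TCDD, and -2.67, -0.51 and -0.39 after oil in WT mice. The double-null oil array had 0.11 and the double-null BP arrays 0.29 and 0.35. These groups lay above all WT oil arrays.

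In the 23-array fit Gstt1 was called higher after TCDD (0.52 ± 0.10, adjusted p = 0.0129). It was not called with all arrays (adjusted p = 0.0821). The direction did not hold on Cy3 alone, which gave -0.56 after TCDD (adjusted p = 0.574). The 23-array fit also called Gstt1 in double-null oil against WT oil and in double-null BP against Cyp1a1-null BP (adjusted p = 0.0252 and 0.0217), and neither was called with all arrays (0.226 and 0.741). No size is given for these, since the ratios of the double-null arrays are over a reference not well above background. Cy3 alone gave 0.03 in double-null oil and -0.49 between the BP groups (adjusted p = 0.99 and 0.738). WT oil replicate 2 had the highest Gstt1 signal of the 23 arrays in both channels, -1.68 in Cy3 and -0.80 in Cy5 on the log2 scale over the 75th percentile of the array. The median Cy5 over those arrays was -3.48. On processed signals, which the scanner software corrected for background and dye, the difference after TCDD was 0.65 (adjusted p = 0.116). With slide as a block none of the 3 was called (adjusted p = 0.346, 0.172 and 0.787), nor was any with no background subtraction.

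Gsta4, an alpha class enzyme known for conjugating hydroxynonenal, was near background. Its single probe, spotted 10 times, was well above background in Cy3 on 15 of 24 arrays and on none of the BP or TCDD arrays of WT mice, so no change is given there. Its reference was not well above background on 4 arrays, the 3 double-null arrays and Cyp1b1-null DMBA replicate 1. On the 23 arrays other than WT oil replicate 1 its log ratios lay between -0.54 and 0.06. Gsta4 was called in no comparison, with or without that array.

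Gstp1, the pi class enzyme that conjugates diol epoxides of polycyclic hydrocarbons, was well above background on every array and was called in no comparison. Its group means spanned 0.67 without WT oil replicate 1. The lowest group was Cyp1a1-null BP, at -0.53, -0.52 and -0.33, and the highest Cyp1b1-null DMBA, at 0.21 and 0.21. These 2 groups do not overlap, but they were picked as the extremes of 10 group means, so this is no test of a difference. The share of all genes with such groups was not counted. In the 23-array fit limma's F test called Gstp1 (adjusted p = 0.0133), beside 42.3% of all genes. In the order of group means 8 of 9 neighbouring pairs overlap, but neighbours are the closest groups. Their overlap does not tell whether groups differ. Its 2 probes correlated at r = 0.75 over 23 arrays, but their lowest and highest groups differed. The second probe was lowest in Cyp1b1-null oil (mean -0.71, against -0.06 on the first), followed by Cyp1a1-null BP (-0.67). It was highest in WT BP (0.07, against 0.02). The array names no Gstp2, whose transcripts are very like those of Gstp1 and may not be separated by these probes.

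Gsto1, the omega class enzyme that reduces dehydroascorbate, had the narrowest array range after Gsta4, -0.28 to 0.43 without WT oil replicate 1. Its highest arrays were those of Cyp1b1-null DMBA, at 0.38 and 0.43, followed by a Cyp1b1-null oil array at 0.36. It was called in no comparison.

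Among the 10 genes the largest called difference between treatments of WT mice was in Aldh1a7. Its log ratios after DMBA in WT mice were -1.09, -0.96 and -1.36. After TCDD they were -0.15, -0.02 and 0.54, and after oil -3.37, 0.02 and -0.27. The DMBA arrays lay below every TCDD array and below WT oil replicates 2 and 3.

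In DMBA against WT oil limma called 0 of the 10 genes with all 24 arrays, and 0% of all genes. At an unadjusted p under 0.05 there were 6 of the 10, and 3 in the 23-array fit. The share of all genes at that unadjusted threshold was not counted, here or below. Such counts, of the 10 genes or of other lists, thus do not tell whether they differed more often than other genes. With all 24 arrays the Aldh1a7 difference was 0.07 (adjusted p = 0.964). The value turned in the 23-array fit to -1.01 ± 0.18 (adjusted p = 0.0472), the 1 call among the 10, with 0.098% of all genes called. Slide as a block left -1.03 (adjusted p = 0.0385). On the slide that held 2 DMBA arrays and WT oil replicate 2, the DMBA arrays lay 1.04 lower (-1.09 and -0.96 against 0.02). The difference was larger but not called with the scanner software's processed signals (-1.31, adjusted p = 0.319) and Cy3 alone (-1.25, adjusted p = 0.1). The call also ended with no background subtraction (-1.05, adjusted p = 0.33) and with the replicate number as a block (-0.96, adjusted p = 0.0883).

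Aldh1a7 had low values after BP too, though none was called. On the BP arrays it stood at -0.98 and -0.65 at 6 h in WT mice and -1.07, -0.78 and -0.75 at 12 h in Cyp1a1-null mice, whose oil arrays had -0.23, -0.34 and -0.44. The double-null BP arrays had -0.64 and -0.65 and the double-null oil array 0.34. In Cy3 alone WT BP replicate 2, at -0.497, was not below WT oil replicate 2, at -0.514. On the log ratios every BP array lay below every oil array in all 3 genotypes, WT oil replicate 1 apart. Without that array they were -0.68 ± 0.20 in WT (adjusted p = 0.067), -0.53 ± 0.16 in Cyp1a1-null (0.0789) and -0.99 ± 0.25 in double-null mice (0.0957).

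With slide as a block and without that array, the double-null value of -0.99 was called (adjusted p = 0.0297). There both groups shared a slide. In the DMBA comparison only part of each group did, 2 DMBA arrays and WT oil replicate 2. With the same block the WT and Cyp1a1-null values were -0.64 and -0.45, neither called (adjusted p = 0.644 and 0.972). Both WT BP arrays were on a slide of their own. In the 1 slide with both Cyp1a1-null groups, 1 BP array lay 0.41 below the mean of 3 oil arrays. The difference in the double-null mice rests on 1 oil array, whose variance was borrowed from the other groups.

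In mice labelled Cyp1b1-null the DMBA and oil arrays were closer for Aldh1a7. The log ratios were -0.38 and -0.16 after DMBA and -0.62 and -0.40 after oil. Every DMBA array of that label lay above every oil array of that label and above every WT DMBA array. The DMBA arrays of that label were alone on their slide. Slide thus cannot be told apart from DMBA within that label, or from the label among the DMBA arrays. Cyp1b1-null DMBA against WT DMBA gave 0.87 ± 0.18 in the 23-array fit (adjusted p = 0.0232, the 1 call of 10, against 1.57% of all genes). The call ended with slide as a block (0.94, adjusted p = 0.704), processed signals (0.52, adjusted p = 0.318), no background subtraction (0.38, adjusted p = 0.394) and Cy3 alone (0.69, adjusted p = 0.0967). With all 24 arrays 0 of 10 were called by limma (0.102% of all genes, 0 of the 10 at an unadjusted p under 0.05).

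The difference of the DMBA responses between the genotypes was 1.25 ± 0.27 for Aldh1a7 (adjusted p = 0.0285), also the 1 call of 10, against 3.04% of all genes. With all arrays it was 0.17 (adjusted p = 0.951), with 0 of 10 called (0.00816% of all genes, 0 at an unadjusted p under 0.05). In the 23-array alternatives the difference stayed positive but was not called with slide as a block (1.21, adjusted p = 0.383), processed signals (1.03, adjusted p = 0.139), no background subtraction (0.77, adjusted p = 0.22) or Cy3 alone (0.73, adjusted p = 0.308). The direction within the Cyp1b1-null label depended on the scale. On processed signals the values were -1.01 and -0.74 after DMBA and -0.79 and -0.39 after oil, a difference of -0.28, and on Cy3 alone -0.76 and -0.97 against -0.51 and -0.17.

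**Figure D3:**
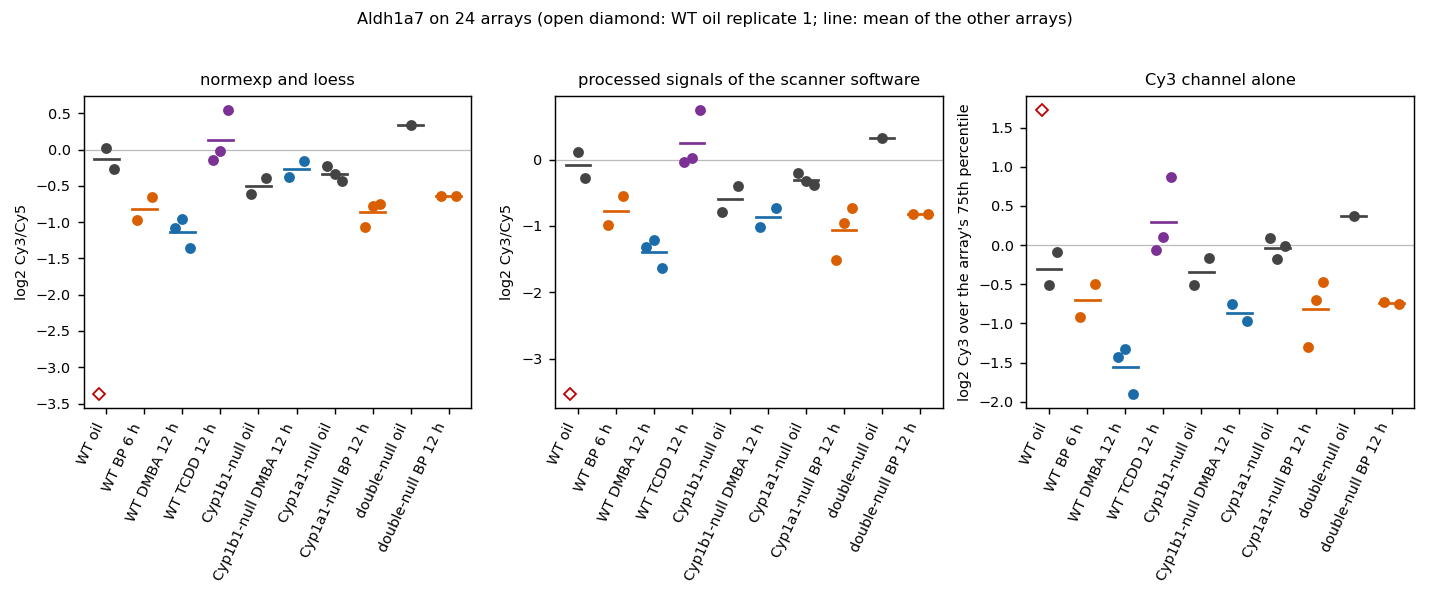
Aldh1a7 on 24 arrays in 10 groups on 3 scales: log ratio after normexp and loess, log ratio of processed signals, and log2 Cy3 over the 75th percentile of the array. Points are arrays, lines group means without WT oil replicate 1, which is the open diamond: lowest in the ratios and highest in Cy3. The 3 WT DMBA arrays lie below all TCDD arrays on each scale.

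Aldh1a1, the retinaldehyde dehydrogenase whose activity marks blood stem cells, followed another pattern than its neighbour. Its log ratios after BP at 6 h were 1.12 and 0.45, against -3.24, 0.08 and 0.11 after oil. Both BP arrays were above all WT oil arrays. In that comparison limma called 0 of the 10 genes with all arrays (0.825% of all genes, 5 of the 10 at an unadjusted p under 0.05). Aldh1a1 was, with 23 arrays, the 1 call of 10, against 3.87% of all genes, at 0.69 ± 0.17 (adjusted p = 0.0312). It was called in none of the other 5 settings without that array, among them slide as a block (0.69, adjusted p = 0.517), processed signals (0.61, adjusted p = 0.244) and Cy3 alone (0.71, adjusted p = 0.133), and both BP arrays were on a slide of their own. The neutrophil list stood at median log ratios of 1.07 and 0.95 on them, above WT oil replicates 2 and 3. The erythroid list was at 0.51 and 0.34 on them against -0.20 and 0.22 on those oil arrays, the macrophage list at 0.63 and 0.65 against 0.25 and 0.29, and the megakaryocyte list of 5 genes at -0.06 and -0.36 against 0.64 and 0.29. The part of these lists in the Aldh1a1 values was not tested.

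At 12 h Aldh1a1 stood at 0.23 to 0.27 after DMBA and 0.11 to 0.30 after TCDD in WT mice, and at -0.07 to 0.11 after BP in Cyp1a1-null mice. None of these groups was called against its oil group by limma. The correlation of Aldh1a1 with Aldh1a7 over the 23 arrays was r = -0.18, a description across arrays that share a reference.

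Aldh2, the mitochondrial enzyme that clears acetaldehyde, was low after TCDD. On the arrays its log ratios were -0.53, -0.39 and -0.43 after TCDD, 0.40, 0.23 and 0.22 after DMBA and 0.28 and 0.63 after BP. The WT oil arrays had -0.58, 0.19 and 0.52. All TCDD arrays lay below all arrays of every other group except WT oil replicate 1.

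Against WT oil limma called 0 of 10 genes after TCDD with all arrays (2.13% of all genes, 6 of the 10 at an unadjusted p under 0.05). The 23-array fit called 2, Gstt1 and Aldh2, against 6.17% of all genes, with Aldh2 at -0.81 ± 0.20 (adjusted p = 0.0272). Processed signals kept that call (-0.87, adjusted p = 0.0325), and it ended with slide as a block (-0.78, adjusted p = 0.366) and for Cy3 alone (-0.55, adjusted p = 0.258). The 3 TCDD arrays were alone on their slide, so that slide and TCDD cannot be told apart.

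The only array near the TCDD values of Aldh2 besides WT oil replicate 1 was double-null oil, at -0.33. A second Aldh2 probe had group means of -0.07 to 0.26 and correlated at r = 0.24 with the first. With the mean of the probes and all arrays, the Aldh2 difference after TCDD turned from -0.50 to 0.14 (adjusted p = 0.812), and DMBA against TCDD went from 0.74 to 0.43 (adjusted p = 0.814). Over the 23 arrays Aldh2 and Gstm5 had the most negative correlation of any pair of the 10 genes, r = -0.75. This too describes arrays that share a reference.

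Ephx1, the microsomal epoxide hydrolase, was called in no comparison, but limma's F test called it in the 23-array fit (adjusted p = 0.0217). All 9 neighbouring pairs in the order of its group means overlapped. Neighbours are the closest groups, so their overlap does not tell whether groups differ. Ephx1 did not overlap between Cyp1b1-null oil and WT DMBA (0.17 to 0.43), a pair picked from these same values, which is no test. Without WT oil replicate 1 its lowest group means were those of double-null oil (1 array, -0.56), Cyp1b1-null oil (-0.66 and -0.27 on its arrays) and double-null BP (-0.43 and -0.19). Its highest log ratio was that of 1 WT BP array, 0.78, while the other BP array had -0.10. Its second probe correlated with the first at r = 0.88 over 23 arrays and was also lowest in double-null oil (mean -1.04). That probe had a WT BP mean of -0.05, against 0.34 on the first.

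DMBA and TCDD were the one pair of compounds measured at the same time in the same genotype. The labels give both the same dose, but they give it for oil as well. All TCDD arrays were alone on their slide, so slide and compound cannot be told apart in this comparison. DMBA is a fused-ring hydrocarbon that cells oxidise readily, and TCDD a chlorinated dioxin that they hardly metabolise. With all 24 arrays limma called 0 of the 10 genes between them (0.645% of all genes, 3 of the 10 at an unadjusted p under 0.05). With 23 arrays, which alters the variance but neither mean, it called 3 of 10, against 6.25% of all genes.

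Aldh1a7 was lower after DMBA than after TCDD by 1.26 ± 0.16 on the log2 scale (that is -1.26, 95% interval -1.61 to -0.92, adjusted p = 0.000509). It was also called on processed signals (-1.64, adjusted p = 0.00217) and Cy3 alone (-1.85, adjusted p = 0.000265), and not with slide as a block (-1.33, adjusted p = 0.143). Gstm5 differed by -0.87 (interval -1.31 to -0.42, adjusted p = 0.021), and Aldh2 by 0.74 (0.36 to 1.11, adjusted p = 0.0187). With slide as a block neither was called (-0.93 and 0.79, adjusted p = 0.431 and 0.411), and Gstm5 was not called on Cy3 alone (-0.59, adjusted p = 0.111). In all 3 genes the arrays of the 2 compounds did not overlap, nor did they in Gstt1 and Ephx1, which were not called. The share of all genes without such overlap was not counted. The erythroid list of 8 genes did not overlap either, with median log ratios of -0.13, 0.00 and -0.24 after DMBA and 0.47, 0.36 and 0.58 after TCDD, and its part in these values was not tested. Cyp1a1, the best known AhR target, had log ratios of 1.93, 1.76 and 1.91 after DMBA but 0.18, 0.15 and 1.55 after TCDD, so that 1 of 3 TCDD arrays neared the DMBA arrays.

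The other 7 genes were not called between the compounds. Gstp1 differed by 0.06 (-0.17 to 0.30), Gsto1 by 0.05 (-0.18 to 0.29) and Aldh1a1 by 0.06 (-0.23 to 0.35). The interval of Gstm1 was -0.17 to 0.64, that of Gstt1 -0.38 to 0.01 and that of Ephx1 0.05 to 0.82 (adjusted p = 0.185). Gsta4 was not well above background on any TCDD array.

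**Figure D4:**
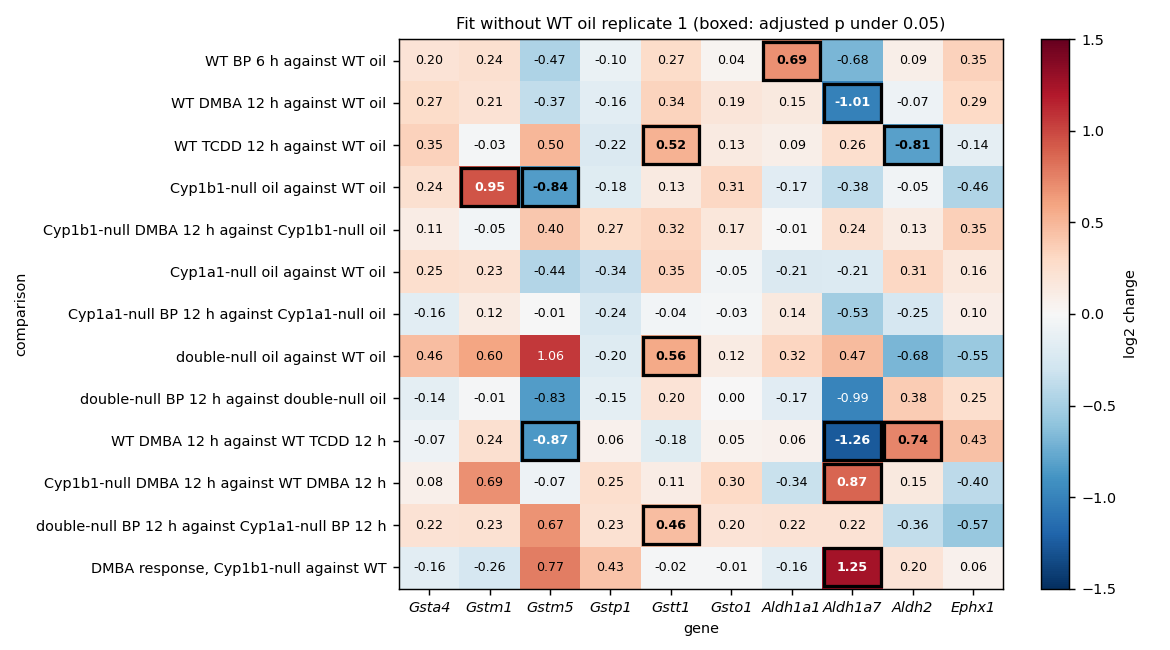
Log2 change of each gene (columns) in 13 comparisons (lines), from the fit without WT oil replicate 1, coloured from blue (lower) to red (higher). Boxes mark adjusted p under 0.05 over all genes: 13 of 130 values, of which 4 are Aldh1a7, 3 Gstt1, 2 each Gstm5 and Aldh2, and 1 each Gstm1 and Aldh1a1, with no box for Gsta4, Gstp1, Gsto1 and Ephx1. The Gsta4 values for BP and TCDD in WT mice come from Cy3 signals not well above background, and those of Gsta4 and Gstt1 for the double-null arrays from a reference not well above background.

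The comparisons not yet named gave few calls. In the 23-array fit double-null oil against WT oil had 1 call of 10, against 6.12% of all genes, and double-null BP against Cyp1a1-null BP 1 of 10, against 3.61%, both Gstt1. With all arrays limma called 0 of 10 in each (1.61% and 0.135% of all genes, 4 and 1 of the 10 at an unadjusted p under 0.05).

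In Cyp1b1-null DMBA against oil limma called 0 of 10 with or without that array (0.0245% and 7.46% of all genes), with 0 and 1 of the 10 at an unadjusted p under 0.05. Cyp1a1-null oil against WT oil had 0 of 10 as well (3.6% and 7.59% of all genes, 5 and 3 of the 10 at an unadjusted p under 0.05). Cyp1a1-null BP against oil had 0 of 10 (0.0327% and 0.155% of all genes, 0 and 1 of the 10). Double-null BP against oil had 0 of 10 (0.282% and 0.519% of all genes, 1 and 2 of the 10).

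The median change of the 10 genes against WT oil was 0.71 after BP, 0.76 after DMBA and 0.73 after TCDD with all arrays, against a median of 0.01, 0.00 and 0.03 over all genes. These medians with 23 arrays were 0.15, 0.17 and 0.11, against 0.02 over all genes in each. The 3 comparisons share the WT oil arrays. The larger medians were thus present only in the fit that held WT oil replicate 1.

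The authors' deposited table gives a value per probe and comparison with no error, on a scale that it does not state and that was taken as log2 from its likeness to the refitted values. In the authors' deposited table Aldh1a7 stood at -1.26 for DMBA and -0.64 for BP against oil in WT mice, -0.76 for BP in Cyp1a1-null and -1.14 for BP in double-null mice. The authors' deposited table has Aldh1a7 at -0.28 for DMBA in Cyp1b1-null mice, the direction of the processed signals and not of the loess ratios. The authors' deposited table has Aldh2 at -0.82 for TCDD, Aldh1a1 at 0.58 for BP in WT mice, and Gstm1 and Gstm5 at 0.84 and -0.73 for Cyp1b1-null oil. These values come from the same arrays and are no separate measurement.

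Other genes of these families were taken from lists chosen with earlier results of these data known. Of 21 other glutathione transferases 20 were measured. With 23 arrays 4 of them were higher and 2 lower in Cyp1b1-null oil against WT oil, where 29.6% of all genes were called. Gstm7 was higher by 1.17 ± 0.29 (adjusted p = 0.00687), and was also called with all arrays (1.45 ± 0.31, adjusted p = 0.00784). Mgst2, a membrane-bound enzyme that also makes leukotriene C, had 1.01 ± 0.19 (adjusted p = 0.00189) and Gstt2 -0.74 ± 0.17 (0.00493). Those calls were absent with all arrays, at -0.12 and -0.07 (adjusted p = 0.92 and 0.916). Between DMBA and TCDD 2 of 20 were higher and 0 lower with 23 arrays, against 6.25% of all genes, Mgst1 at 0.53 ± 0.11 (adjusted p = 0.0105) and Gstm3 at 0.79 ± 0.20 (0.0228). Neither was called with all arrays (adjusted p = 0.654 and 0.788). Against WT oil limma called 0 of 20 after BP, DMBA or TCDD without that array, beside 3.87%, 0.098% and 6.17% of all genes. At an unadjusted p under 0.05 there were 3, 2 and 5. With all arrays Mgst3 was called lower after TCDD (-0.85 ± 0.20, adjusted p = 0.0388), the 1 call of 20, beside 2.13% of all genes. Without that array Mgst3 was at -0.64 (adjusted p = 0.0511).

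All 17 other aldehyde dehydrogenases were measured. In the 23-array fit Aldh18a1, which makes a proline precursor, fell after BP in WT mice by 0.94 ± 0.17 (adjusted p = 0.00789), and Aldh3a2, which oxidises fatty aldehydes, rose by 0.52 ± 0.13 (0.0312), the 2 calls of 17 beside 3.87% of all genes. The fall of Aldh18a1 was also called with all arrays (-0.99 ± 0.16, adjusted p = 0.0127), and Aldh3a2 was not (1.34, adjusted p = 0.193). In Cyp1b1-null oil 6 were higher and 2 lower, beside 29.6% of all genes, with Aldh3b1 at 1.04 ± 0.18 (adjusted p = 0.00132) and Aldh8a1 at 1.51 ± 0.33 (0.00389). Aldh8a1 was called with all arrays too (2.17 ± 0.47, adjusted p = 0.00923), and Aldh3b1 was not (-0.02, adjusted p = 0.987).

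Of 4 other epoxide hydrolases 3 were measured. Ephx2, the soluble epoxide hydrolase, was higher by 0.97 ± 0.23 in Cyp1b1-null oil (adjusted p = 0.00558) and lower by -0.82 ± 0.19 after DMBA than after TCDD (adjusted p = 0.0148) without WT oil replicate 1. Lta4h, which makes leukotriene B, went the other way in both, at -0.83 ± 0.22 (adjusted p = 0.0112) and 0.75 ± 0.18 (adjusted p = 0.0197). The background was 29.6% and 6.25% of all genes. With all arrays only the Lta4h difference in Cyp1b1-null oil was called of these 4 (-1.35 ± 0.35, adjusted p = 0.0198), with Ephx2 at 2.53 there (adjusted p = 0.0625) and adjusted p of 0.914 and 0.442 for Ephx2 and Lta4h between DMBA and TCDD.

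Among 13 genes of glutathione synthesis and recycling, Gpx1, the glutathione peroxidase, rose in the 23-array fit after BP (1.20 ± 0.21, adjusted p = 0.00565) and TCDD (1.16 ± 0.19, adjusted p = 0.00521) in WT mice, the 1 call of 13 in each, beside 3.87% and 6.17% of all genes. It was called with all arrays as well (1.06 ± 0.21 and 1.02 ± 0.19, adjusted p = 0.0298 and 0.0157). Gclm, a subunit of the enzyme that starts glutathione synthesis, was lower in Cyp1b1-null oil (-1.52 ± 0.26, adjusted p = 0.00103), as was the cystine carrier Slc7a11 (-0.98 ± 0.24, adjusted p = 0.00662), among 3 calls of 13 beside 29.6% of all genes. Slc7a11 was called with all arrays (-1.12 ± 0.23, adjusted p = 0.00734) and Gclm was not (-0.87, adjusted p = 0.175). The medians of these lists in that comparison were 0.20 for the other transferases, 0.17 for the other aldehyde dehydrogenases and -0.05 for the glutathione genes, against 0.06 over all genes.

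Of 8 genes of the AhR battery 7 were measured. With 23 arrays, 4 were higher and 0 lower after BP in WT mice, beside 3.87% of all genes, among them the receptor's repressor Ahrr (2.19 ± 0.33, adjusted p = 0.00229) and Nqo1, a quinone reductase (0.78 ± 0.16, adjusted p = 0.014). Both were called with all arrays (1.87 and 0.75, adjusted p = 0.0259 and 0.0302). After DMBA 1 was higher, Cyp1a1 (1.69 ± 0.29, adjusted p = 0.0472), beside 0.098% of all genes, and it was not called with all arrays (1.74, adjusted p = 0.0606). After TCDD, with 6.17% of all genes called, limma called 0 of 7, with 1 at an unadjusted p under 0.05. The 10 enzymes described here had 1, 1 and 2 calls in the same comparisons, which share the WT oil arrays.

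For each of the 10 genes the most alike of all genes tested, by Pearson's r of log ratios over the 23 arrays, are given as a description. They were Hpn (r = 0.91) and Fam132a (0.89) for Aldh1a7, Isca1 (0.92) for Aldh1a1, and Kcnab2 (0.92) and Galns (0.92) for Aldh2. Ephx1 was most like the B cell receptor gene Cd22 (0.90) and Ccdc134 (0.89). Gstm1 was most like Lmo1 (0.92) and Ncam1 (0.91), Gstm5 like Mylpf (0.91) after a probe with no gene name, and Gstp1 like Atic (0.89) and Slc19a1 (0.88). Gsto1 was most like 2610030H06Rik (0.82) and the progenitor marker Cd34 (0.82), Gstt1 like Drp2 (0.84) and Gsta4 like Syp (0.85).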

How the data were processed

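Bone marrow RNA was hybridised to 24 Agilent 2-colour arrays, 10 slides in all. Spot intensity values were deposited by the authors as written by Feature Extraction 9.1.3.1 (20 arrays) or 10.7.3.1 (4 arrays), per the file headers, with mean, background and processed signals for Cy3 and Cy5. The authors deposited a further table of differences for 9 comparisons, on a scale not stated and taken here as log2 from its likeness to the refit, and per the submitters' processing notes limma was used. No genome build is given in the sources used here.

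Here mean signals were corrected by normexp (offset 50) and within-array loess, control spots left out and spots of a probe averaged. The brightest probe stood for a gene, by the gene name in the files. Genes with Cy3 well above background on at least 3 arrays were tested with limma 3.58.1 (R 4.3.3), all 10 groups in one fit, with Benjamini-Hochberg adjustment over all genes and calls at 0.05. Cy3 alone was scaled to the 75th percentile of its array. The number of arrays, 1 to 3 per group, limits the precision. Named were all 10 members, up to 4 genes per other list with the smallest adjusted p among those called, and the 2 most alike genes for each member. The members and lists were chosen with earlier results of these data known. The script was tested on simulated data. Same-numbered arrays of different groups correlated at -0.25 to 0.34 over 82 pairs, so the numbers do not pair arrays.

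Alternatives were the processed signals, no background subtraction, Cy3 alone, Aquantile scaling, other filters, the mean of probes, slide or replicate number as a block, another prior and leaving out each array. Fits that leave out WT oil replicate 1 and change a further choice were chosen after seeing the data.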

Additional observations from a re-analysis of the deposited data

Results flagged for a closer look

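The change of Aldh1a7 with DMBA differed between mice labelled Cyp1b1-null and WT mice by 1.25 on the log2 scale without WT oil replicate 1 (limma interaction, adjusted p = 0.0285), and by 0.17 with it (adjusted p = 0.951). Of 6 settings without that array 2 called it. It was not called with slide as a block (1.21, adjusted p = 0.383), processed signals (1.03, adjusted p = 0.139), no background subtraction (0.77, adjusted p = 0.22) or Cy3 alone (0.73, adjusted p = 0.308). It drew attention because the effects of 1 compound in 2 genotypes differed by a test of the difference itself. Both Cyp1b1-null DMBA arrays were alone on their slide, and the oil arrays of that label were on another. Slide and DMBA therefore cannot be told apart in that label. In WT mice all 3 DMBA arrays lay below WT oil replicates 2 and 3, and in the Cyp1b1-null label both DMBA arrays lay above both oil arrays on the loess ratios. Within that label the direction turned on processed signals (-0.28) and on Cy3 alone. The Cyp1b1 probe does not check that label, and the cause of the difference was not tested.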

How the results depend on the processing

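With all 24 arrays Aldh1a7 after DMBA in WT mice stood at 0.07, without that array it reversed to -1.01, and with slide as a block besides to -1.03. Leaving out 1 array at a time gave it from -1.01 to 0.68 (the highest without WT oil replicate 2). Leaving out single arrays, the number of the 10 genes called ranged from 0 to 3 for BP, 0 to 1 for DMBA and 0 to 7 for TCDD against WT oil (7 without WT oil replicate 2). It ranged from 0 to 4 for Cyp1b1-null oil (4 without WT oil replicate 2, 0 without either Cyp1b1-null oil array), 0 to 4 for Cyp1a1-null oil (4 without WT oil replicate 2 or 3) and 0 to 2 for double-null oil. It ranged from 0 to 3 for DMBA against TCDD, 0 to 1 for each of Cyp1b1-null DMBA against WT DMBA, double-null BP against Cyp1a1-null BP and the difference of DMBA responses, and 0 to 9 for any group. It stayed at 0 for treatment against oil in the 3 null genotypes. The share of all genes called moved between fits too. For any group it was 10.1% with all 24 arrays and 42.3% without WT oil replicate 1. That share is not given for the other fits of this section. Without it the counts, here and below, do not tell whether the 10 genes were called more often than other genes.

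With all arrays, the Gstm1 call in Cyp1b1-null oil was lost, leaving 0, with processed signals, Cy3 alone, the mean of probes or slide as a block. Cy3 alone called 1 gene for DMBA against TCDD, 1 for Cyp1b1-null DMBA against WT DMBA and 2 for any group, and slide as a block 0 for any group.

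Without WT oil replicate 1, processed signals called 1 gene for TCDD, 2 for Cyp1b1-null oil, 1 for double-null oil, 3 for DMBA against TCDD and 7 for any group. Cy3 alone then called 0 for Cyp1b1-null oil, 2 for DMBA against TCDD and 5 for any group. It called 2 for Cyp1b1-null DMBA against WT DMBA (Aldh1a1 and Ephx1) and 1 for double-null BP against Cyp1a1-null BP (Gstp1). No background subtraction called 1 for TCDD, 2 for Cyp1b1-null oil, 3 for DMBA against TCDD, 1 for Cyp1b1-null DMBA against WT DMBA (Gstm1, not Aldh1a7) and 7 for any group. Slide as a block called 1 for DMBA, 0 for Cyp1b1-null oil and 1 for double-null BP against oil.

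The replicate number as a block changed no count with all arrays (1 for Cyp1b1-null oil). Without WT oil replicate 1 this block called 2 for TCDD, 2 for Cyp1b1-null oil, 3 for DMBA against TCDD, 1 each for Cyp1b1-null DMBA against WT DMBA, double-null BP against Cyp1a1-null BP and the difference of DMBA responses, and 9 for any group. The causes of these moves were not tested. Signals near background limit Gsta4 and Gstt1, well above background in Cy3 on 15 and 22 of 24 arrays.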
